A study of Arabidopsis thaliana with 6 samples.

Results

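Auxin is read in plant cells by 3 protein families, and transcripts of 50 genes of these families were followed here in Arabidopsis thaliana inflorescences: 29 Aux/IAA repressors (IAA1 to IAA20 and IAA26 to IAA34), 15 auxin response factors (ARFs), and the 6 receptors TIR1 and AFB1 to AFB5. The genes were taken by locus from a list, not by their measured values. All 50 had a value on every array, out of 32627 genes measured. Inflorescences of plants with the 35S::SUP-GR transgene, whose background was Ler wild-type, were treated with 10 µM dexamethasone (DEX, 3 arrays), and the controls were the same line given the same amount of ethanol (Mock, 3 arrays). In 35S::SUP-GR a strong viral promoter, not restricted to the cells that normally make the flower regulator SUPERMAN (SUP), drives SUP fused to the steroid-binding part of the glucocorticoid receptor; both groups carry it, and such fusions are generally kept out of the nucleus until DEX is given. The dose was taken as a concentration, although its unit is that of a length in the labels. Both solutions held 0.015% Silwet L-77, inflorescences were dipped for 1 min, and at 4 hours the tissue before flower stage 10 was collected from plants grown at 22 °C in continuous light. DEX-treated plants without the transgene were not analysed here.

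Auxin acts as glue between a TIR1/AFB receptor, which is the F-box subunit of a ubiquitin ligase, and an Aux/IAA protein, which is then degraded. Aux/IAA proteins otherwise sit on ARF transcription factors and bring in TOPLESS-type corepressors, so their loss frees the ARFs to act on auxin-responsive genes. Many Aux/IAA genes are themselves such targets, which closes a feedback loop, and in the flower this machinery is known for placing floral primordia and shaping the gynoecium and stamens.

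Values are hybridisation intensities of each gene's brightest feature, normalized by the authors, and differences are on the log2 scale as DEX minus Mock with their standard error (SE). Intensities of different genes come from different features and are not compared as transcript levels. They serve for a coarse check with marker genes and for sums of marker lists per array. Otherwise they only say whether a gene is dim, that is, below the median gene intensity of 72.9. All 15 ARFs and all 6 receptors were above that intensity, against 13 of 29 Aux/IAA genes. The labelled tissue was checked with markers. The floral markers AP1, LFY, AP3, PI, AG, SEP3 and WUS lay between 55.7 and 1791 on every array, and the root markers WOX5, EXPA7 and RHD6 between 1.19 and 4.49. The seed markers CRA1 and OLEO1 lay between 2.53 and 29.4. Of the late pollen markers, PPME1 stayed between 19.0 and 48.0, while VGD1 lay between 218 and 523. VGD1 was thus not dim, although the tissue is labelled as before flower stage 10, and the reason was not tested. Mock replicate 1 stood apart in organelle transcripts, with a median deviation from each gene's mean of -0.52 for chloroplast and -0.48 for mitochondrial genes, where the other 5 arrays lay between -0.02 and 0.22.

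None of the 50 genes passed an adjusted p of 0.05 over all genes (limma, Benjamini-Hochberg), a threshold that 17 of 32627 genes, 0.0521%, passed. At an unadjusted p under 0.05, 7 members were lower and 3 higher in DEX, 10 of 50 or 20%, where 10.4% of all genes were at that level (5.92% lower and 4.5% higher). The members' median difference was -0.01, against 0.01 over all genes, and 25 of the 50 were below 0, where 49.1% of all genes were. DEX and Mock arrays did not overlap for 13 members, 8 lower and 5 higher, or 26%, where 17.9% of all genes showed no overlap (9.2% lower and 8.74% higher). That share was 21.5% of genes at or above the median intensity and 14.4% of dim genes. Of the 50 members, 34 were at or above that intensity. Under some other settings, but not all, IAA17 and IAA32 passed the threshold. ARF18 and AFB1 did with the trended and robust variance prior fitted together with replicate number as a block. That fit called 750 genes, 2.3% of all.

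**Figure D1:**
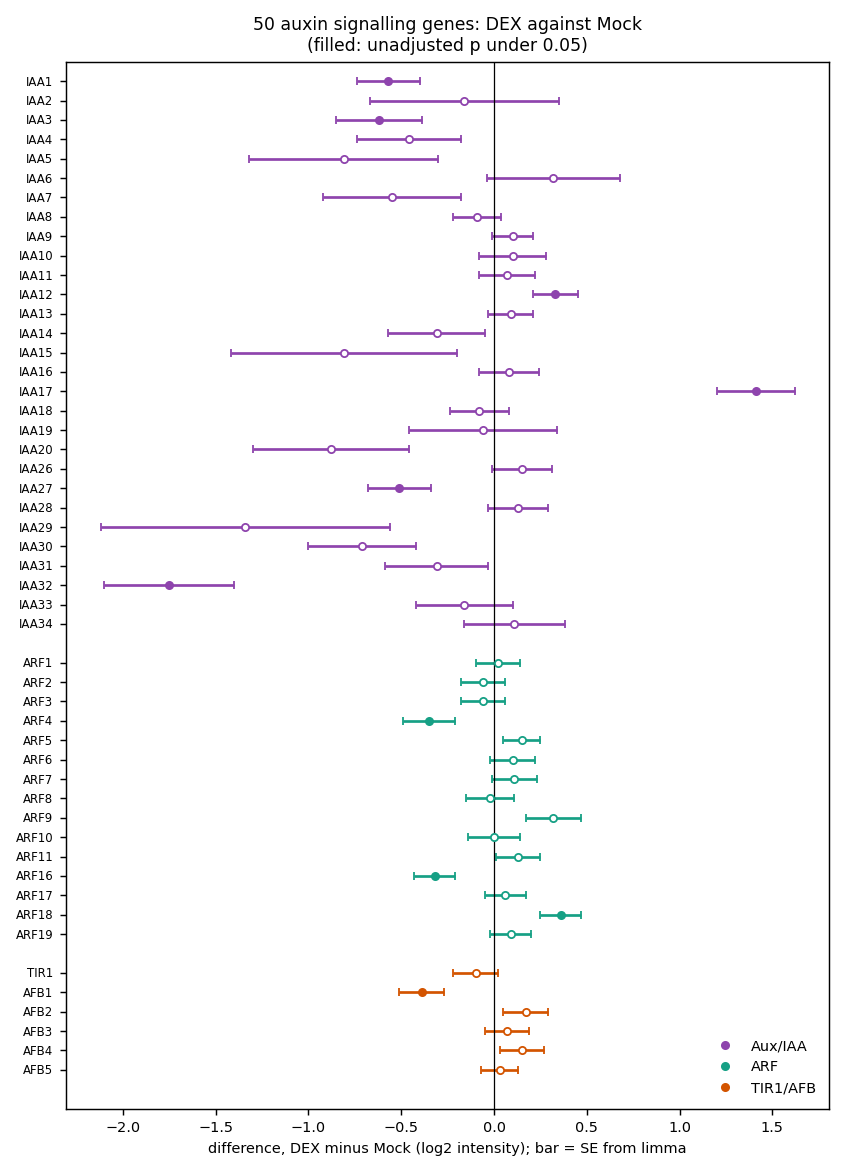
Difference between DEX and Mock (x axis, log2 intensity, DEX minus Mock) for each of the 50 genes, grouped by family from top to bottom; points are limma estimates, bars are SE, and filled points had an unadjusted p under 0.05. ARFs and receptors lie between -0.39 and 0.36, while Aux/IAA genes spread from -1.75 for IAA32 to 1.41 for IAA17.

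The Aux/IAA repressors had the widest range of differences of the 3 families, from -1.75 to 1.41, and also the largest errors (median SE 0.26, against 0.12 for ARFs and 0.12 for receptors); the spread was not tested between families. Apart from IAA17, the brighter Aux/IAA genes lay between -0.51 and 0.33, close to the range of the ARFs. Of the 29, 18 were below 0 and 11 above, with a median of -0.16. That median was -0.09 with 16 added, -0.06 without Mock replicate 1, -0.08 without DEX replicate 1, -0.26 without DEX replicate 2 and -0.25 without Mock replicate 2. IAA1, IAA3, IAA27 and IAA32 were lower and IAA12 and IAA17 higher at an unadjusted p under 0.05, and the other 23 differed by -1.34 to 0.32 (limma adjusted p from 0.485 to 0.97). The direction went with brightness: of the 16 dim Aux/IAA genes 14 were below 0, with a median of -0.56, and of the 13 brighter ones 4 were below 0, with a median of 0.09. Over all genes 50.8% of the dim and 47.4% of the brighter ones were below 0. With 16 added to each intensity the median of the 16 dim genes was -0.19. This split was chosen after the values were seen. IAA17 is among the brighter genes through its DEX values, since all its Mock values were below 72.9.

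IAA17 (AT1G04250), also called AXR3, is a repressor whose stabilising mutations make plants strongly auxin-resistant. Its intensity was 145, 134 and 131 on the DEX arrays, against 69.5, 42.1 and 46.3 on the Mock arrays. All 3 DEX arrays lay well above the highest Mock array and within a narrow range. The mean log2 intensity was 7.09 ± 0.08 in DEX and 5.68 ± 0.38 in Mock (SD, n = 3), a 2.65-fold difference of 1.41 (SE 0.21). With limma's default prior it did not pass (adjusted p = 0.128). It passed with the trended and robust prior (limma adjusted p = 0.00323), which called 431 genes, 1.32% of all (1.06% lower and 0.257% higher). It also passed with 16 added to each intensity (difference 1.17, limma adjusted p = 0.0343; 0.625% of genes called). Among genes at or above the median intensity its adjusted p was 0.00827 (limma; 1.73% called), but IAA17 is in that set through its DEX values, since all 3 Mock values were below 72.9, so this is no separate support. IAA17 also passed with the trended and robust prior in each of the 6 fits that left 1 array out. The differences were 1.26 to 1.62, and this setting was chosen after seeing the data. With the default prior it passed in none of these 6 fits (lowest limma adjusted p = 0.192). That prior did not call it after quantile normalization, median centring or taking the mean of all features either. With the replicate block its limma adjusted p was 0.299, or 0.0012 with the trended and robust prior. The latter fit called 2.3% of all genes.

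IAA32 (AT2G01200) belongs to the Aux/IAA proteins that lack the usual degron, the short stretch through which auxin receptors bind. Its intensity was 8.5, 7.84 and 11.2 on the DEX arrays, against 18.2, 39.0 and 39.5 on the Mock arrays. The groups did not overlap, and Mock replicate 1 was the lowest of the Mock arrays. The difference was -1.75 (SE 0.35), with an adjusted p of 0.215 under limma's default prior and 0.0418 under the trended and robust prior. The gene was dim, and with 16 added the difference was -0.91 (limma adjusted p = 0.134). Under the trended and robust prior the call held without Mock replicate 1 and was lost in each of the 5 fits that left out another array. A second IAA32 feature was at 6.12, 15.3 and 7.8 in DEX, against 27.3, 23.2 and 8.9 in Mock. It differed by -0.98 (SE 0.55), in the same direction, but its groups overlapped. Its lowest Mock array was replicate 3, which was the highest for the brighter feature.

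Of the 6 Aux/IAA genes without the usual degron (IAA20 and IAA30 to IAA34), 5 were below 0, with a median of -0.51, or -0.23 with 16 added, and all 6 were dim. IAA20 was at 12.8, 4.91 and 12.5 in DEX, against 18.2, 13.3 and 20.2 in Mock, with no overlap and a difference of -0.88 (SE 0.42). That difference was -0.43 without DEX replicate 2, the lowest array, and -0.36 with 16 added. IAA30 was at 14.4, 14.3 and 25.7 in DEX, against 29.9, 22.9 and 33.9 in Mock, and its groups overlapped (-0.71, SE 0.29). IAA31 and IAA33 differed by -0.31 (SE 0.28) and -0.16 (SE 0.26), within the spread between arrays. IAA34 was the exception in sign, at 0.11 (SE 0.27). None of these 5 passed under either prior.

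Pairs of Aux/IAA genes sit next to each other in the genome: IAA3 with IAA17, IAA1 with IAA14, and IAA2 with IAA7, with 0 protein-coding genes listed between them in RefSeq (assembly TAIR10.1). IAA3 (AT1G04240), or SHY2, known for limiting the root meristem, was at 45.9, 41.7 and 46.5 in DEX, against 90.9, 70.3 and 51.1 in Mock. The DEX arrays were all below the Mock arrays, narrowly so for Mock replicate 3, and the difference was -0.62 (SE 0.23, limma adjusted p = 0.432). IAA3 thus differed in the opposite direction from its neighbour IAA17. Within each array, log2 IAA17 minus log2 IAA3 was 1.66, 1.68 and 1.49 in DEX, against -0.39, -0.74 and -0.14 in Mock. The means of this contrast differed by 2.03 between the groups; the pair is shown because its genes lay on opposite sides, so the value is a description with no test.

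IAA1 (AT4G14560), also known as AXR5, was at 36.4, 40.0 and 40.1 in DEX, against 71.8, 52.2 and 50.5 in Mock. The groups did not overlap, and the difference was -0.57 (SE 0.17, limma adjusted p = 0.356). Its neighbour IAA14, or SOLITARY ROOT, which holds back lateral roots, overlapped between the groups, at 7.41, 13 and 12.8 in DEX and 14.5, 14.6 and 11.2 in Mock (-0.31, SE 0.26). IAA2 was at 25.7, 18.1 and 43.7 in DEX, against 48.7, 16.5 and 35.0 in Mock. IAA7, or AXR2, was at 20.4, 18.7 and 38.8 in DEX, against 39.4, 25.3 and 46.4 in Mock. Both genes varied widely within each group, and their differences of -0.16 (SE 0.51) and -0.55 (SE 0.37) were within that spread.

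**Figure D2:**
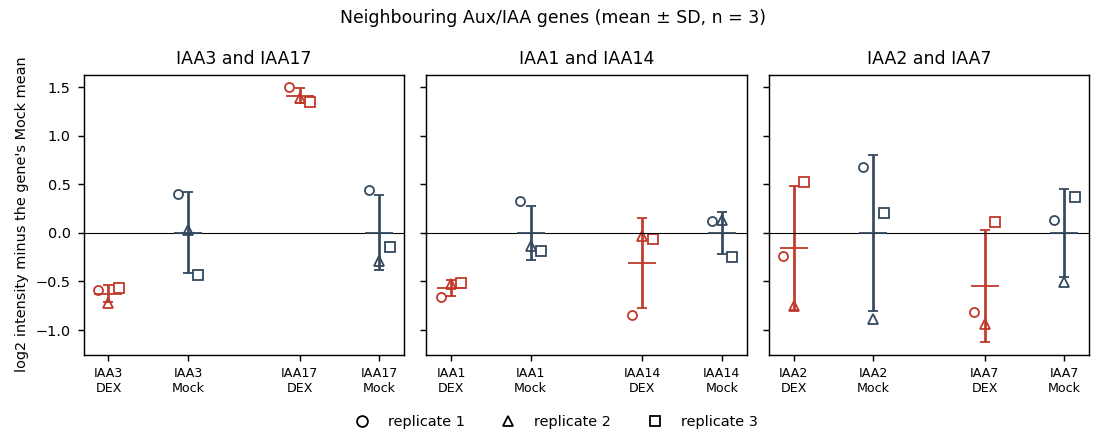
Log2 intensity minus the gene's own Mock mean (y axis) for 3 neighbouring pairs of Aux/IAA genes, DEX in red to the left of Mock in blue; symbols are arrays by replicate, and bars are mean ± SD (n = 3). IAA17 stands above its Mock mean by 1.41 while IAA3 lies below its own by 0.62, and IAA1 lies below by 0.57.

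IAA27 (AT4G29080), or PAP2, a phytochrome-associated Aux/IAA protein, was the brightest of the lower repressors. It was at 609, 647 and 675 in DEX, against 1157, 809.6 and 817 in Mock, without overlap. The difference was -0.51 (SE 0.17), with a limma adjusted p of 0.412, or 0.0742 with the trended and robust prior. IAA26, or PAP1, the other phytochrome-associated member, was at 158, 141 and 183 in DEX and 144, 126 and 164 in Mock (0.15, SE 0.16), and its groups overlapped.

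Mock replicate 1 was the highest Mock array for IAA1, IAA3, IAA27, ARF16 and AFB1, which are 5 of the 7 lower members, and for 14 of the 29 Aux/IAA genes. DEX replicate 3 was likewise the highest DEX array for 17 of the 29. Over all 50 members Mock replicate 1 was the highest Mock array for 19, against 23 for Mock replicate 3. Without Mock replicate 1 the differences were -0.40 for IAA1, -0.42 for IAA3, -0.34 for IAA27, -0.26 for ARF16, -0.34 for AFB1 and -0.35 for ARF4. IAA17 and IAA32 differed by 1.62 and -2.12 without it. The count of members lower at an unadjusted p under 0.05 was then 4 in place of 7. It was 3 without DEX replicate 1 and 3 without DEX replicate 2.

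IAA12 (AT1G04550), or BODENLOS, is the repressor that holds ARF5 in check in the embryo. It was at 443, 533 and 458 in DEX, against 391, 364 and 386 in Mock. Every DEX array was above every Mock array, by 1.25-fold on average (0.33, SE 0.12; limma adjusted p = 0.432). A second and dimmer IAA12 feature differed by 0.09 (SE 0.18). IAA13, its close relative, was at 321, 339 and 376 in DEX and 316, 299.5 and 354 in Mock, a difference of 0.09 (SE 0.12).

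The remaining Aux/IAA genes did not separate the groups. IAA8 (AT2G22670), studied for its part in flower development, was at 1818, 1657 and 2029 in DEX and 2067, 1812 and 1954 in Mock (-0.09, SE 0.13). IAA9 (AT5G65670), which restrains leaf and vascular development, was at 1258, 1324 and 1240.5 in DEX and 1157, 1311 and 1117 in Mock (0.10, SE 0.11). Their second features pointed the other way, at 0.06 (SE 0.11) for IAA8 and -0.12 (SE 0.14) for IAA9, within the spread between arrays.

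IAA4 and IAA19 are genes quickly induced by auxin. IAA4 was at 89.0, 129.7 and 154 in DEX, against 219.8, 154 and 138 in Mock (-0.46, SE 0.28). IAA19, or MASSUGU2, known from bending of the hypocotyl, was at 67.2, 134 and 116 in DEX and 144, 124 and 66.7 in Mock (-0.06, SE 0.40). Both overlapped between the groups, and IAA19 ranged about as widely within a group as over all arrays.

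IAA10, IAA11, IAA16, IAA18 and IAA28 differed by between -0.08 and 0.13, each with an SE of 0.15 to 0.18. IAA5, IAA6, IAA15 and IAA29 were among the dimmest. IAA29 was at 2.36, 1.19 and 9.27 in DEX, against 11.5, 5.94 and 6.24 in Mock, and its difference of -1.34 (SE 0.78) was -0.25 with 16 added. IAA5, IAA6 and IAA15 differed by -0.81 (SE 0.51), 0.32 (SE 0.36) and -0.81 (SE 0.61), none beyond the spread between arrays.

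**Figure D3:**
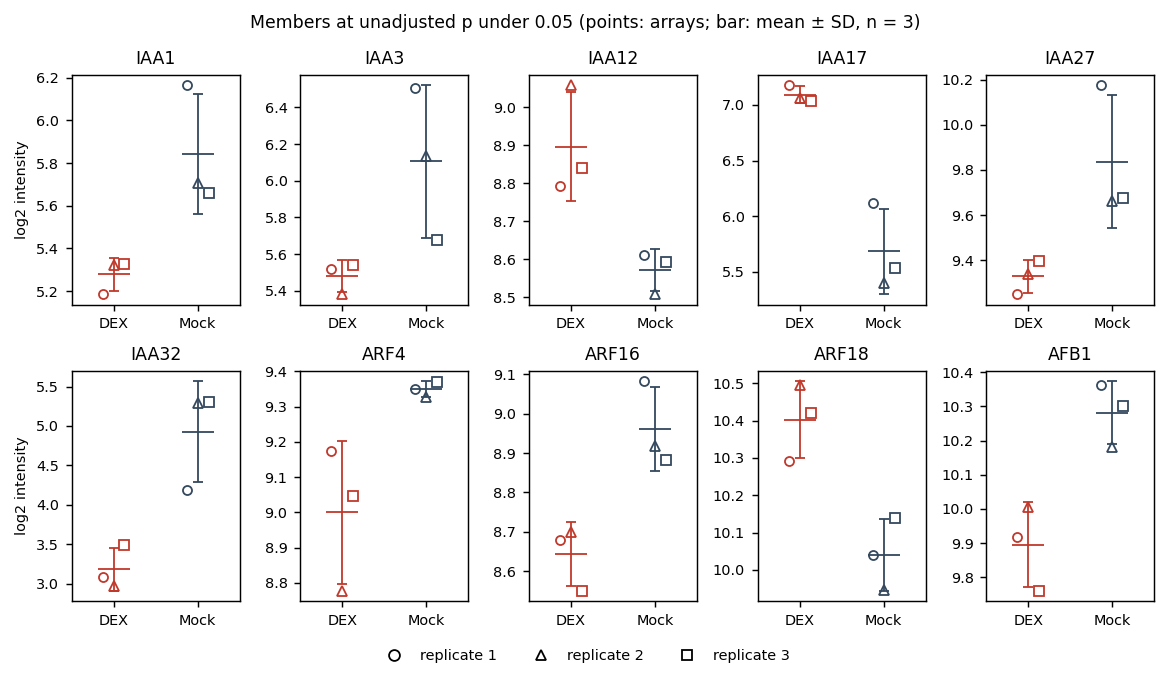
Log2 intensity (y axis, its range set for each gene) of the 10 genes with an unadjusted p under 0.05, DEX in red to the left of Mock in blue; symbols mark arrays by replicate, and bars are mean ± SD (n = 3). The groups do not overlap for any of the 10, and Mock replicate 1 (circle) is the highest Mock array for IAA1, IAA3, IAA27, ARF16 and AFB1.

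The differences of the ARFs, all of them above the median intensity, lay between -0.35 and 0.36, with SEs of 0.10 to 0.15 and a median of 0.06, and 10 of 15 were above 0. ARF4 and ARF16 were lower and ARF18 higher at an unadjusted p under 0.05, and the other 12 differed by -0.06 to 0.32 (limma adjusted p from 0.548 to 0.999). Median centring of the arrays shifts all differences by 0.03, to a median of 0.09 for the ARFs, and quantile normalization gives 0.03.

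The ARFs known as activators, which carry a glutamine-rich middle region, are ARF5, ARF6, ARF7, ARF8 and ARF19. ARF5 (AT1G19850), or MONOPTEROS, which starts flower primordia, was at 1627, 1660.2 and 1686 in DEX, against 1385, 1534 and 1563 in Mock. Its groups did not overlap, with a difference of 0.15 (SE 0.10, limma adjusted p = 0.665). ARF6 (AT1G30330) was at 1661, 1532 and 1425 in DEX and 1329, 1479 and 1514 in Mock (0.10, SE 0.12). ARF8 (AT5G37020), which acts with ARF6 in flower opening and stamen elongation, was at 1027, 1156 and 1026 in DEX and 995, 1238 and 1029.9 in Mock (-0.02, SE 0.13). ARF6 and ARF8 are known targets of the microRNA miR167, and neither separated the groups.

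ARF7, or NPH4, and ARF19 act together in lateral roots. ARF7 was at 992, 1058 and 1039.9 in DEX and 1071, 857 and 943 in Mock, and its 3 features gave differences of 0.09 to 0.11. ARF19 was at 441, 436 and 437 in DEX and 440.2, 379.7 and 415 in Mock (0.09, SE 0.11). Both overlapped between the groups.

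ARF2, ARF3 and ARF4 are known targets of the small RNAs called tasiR-ARFs. ARF3 (AT2G33860), or ETTIN, which patterns the gynoecium, was at 771, 890.2 and 922 in DEX, against 889, 942 and 864 in Mock (-0.06, SE 0.12), and overlapped. ARF4 (AT5G60450), which acts with ETTIN in the underside of organs, was at 578, 439 and 529 in DEX, against 653, 642 and 662 in Mock. The Mock arrays were close together and all above DEX, and the difference was -0.35 (SE 0.14, limma adjusted p = 0.465). ARF2 (AT5G62000), which limits organ size, was at 1905, 1683 and 1813 in DEX and 1909, 1675 and 2048 in Mock (-0.06, SE 0.12). Its second feature differed by 0.12 (SE 0.11), so its sign depends on the feature.

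ARF10, ARF16 and ARF17 are known targets of the microRNA miR160. ARF16 (AT4G30080), known with ARF10 from the root cap, was at 410.2, 416 and 375 in DEX, against 542, 484 and 472 in Mock. The groups did not overlap, and the difference was -0.32 (SE 0.11, limma adjusted p = 0.424). ARF10 was at 474, 560.4 and 524 in DEX and 527, 449 and 587 in Mock, a difference of 0.00 (SE 0.14). ARF17, needed for the pollen wall, was at 1110.3, 1252 and 1266 in DEX and 1078, 1205 and 1204 in Mock (0.06, SE 0.11). Of these 3 genes, ARF16 was thus the one whose groups were apart.

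ARF18 (AT3G61830) had the largest difference among ARFs above 0. It was at 1253, 1443 and 1370.1 in DEX, against 1053, 986 and 1127 in Mock, without overlap (0.36, SE 0.11; limma adjusted p = 0.38, or 0.0627 with the trended and robust prior). With the replicate block these were 0.466 and 0.0375, the latter in a fit that called 2.3% of all genes. ARF9 (AT4G23980), known from the embryo's suspensor, was at 807, 845 and 836 in DEX, against 574, 644 and 798 in Mock. It too did not overlap, narrowly on the side of Mock replicate 3, and its 2 features differed by 0.32 (SE 0.15) and 0.29 (SE 0.13). ARF1 and ARF11 differed by 0.02 (SE 0.12) and 0.13 (SE 0.12) and overlapped between the groups.

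Among the 6 receptors, AFB1 was lower in DEX at an unadjusted p under 0.05 and the other 5 were within the spread between arrays. AFB1 (AT4G03190), an F-box receptor known from fast auxin responses in roots, was at 967, 1029 and 868 in DEX, against 1316, 1161 and 1261 in Mock. The groups did not overlap, and the mean log2 intensity was 9.90 ± 0.12 in DEX and 10.28 ± 0.09 in Mock (SD, n = 3). The difference was -0.39 (SE 0.12), with limma adjusted p = 0.369, or 0.0557 with the trended and robust prior. With the replicate block these were 0.464 and 0.0342, the latter in a fit that called 2.3% of all genes.

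TIR1 (AT3G62980), the founding receptor, was at 1615, 1411 and 1675 in DEX and 1632, 1603 and 1792 in Mock (-0.10, SE 0.12). AFB2 (AT3G26810) was at 773, 779 and 930.4 in DEX and 714, 704 and 777 in Mock (0.17, SE 0.12). AFB3 (AT1G12820) was at 1342, 1260.2 and 1328 in DEX and 1116, 1259.9 and 1387 in Mock (0.07, SE 0.12). All 3 overlapped between the groups. AFB4 and AFB5, receptors known for binding the herbicide picloram, did as well. AFB4 (AT4G24390) was at 425, 366 and 455 in DEX and 356, 387 and 379 in Mock (0.15, SE 0.12). AFB5 (AT5G49980) was at 1448, 1329 and 1448 in DEX and 1373, 1318 and 1451 in Mock (0.03, SE 0.10). Adjusted p for the 5 lay between 0.682 and 0.948 (limma). Whether AFB1 differed from the others was not tested.

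**Figure D4:**
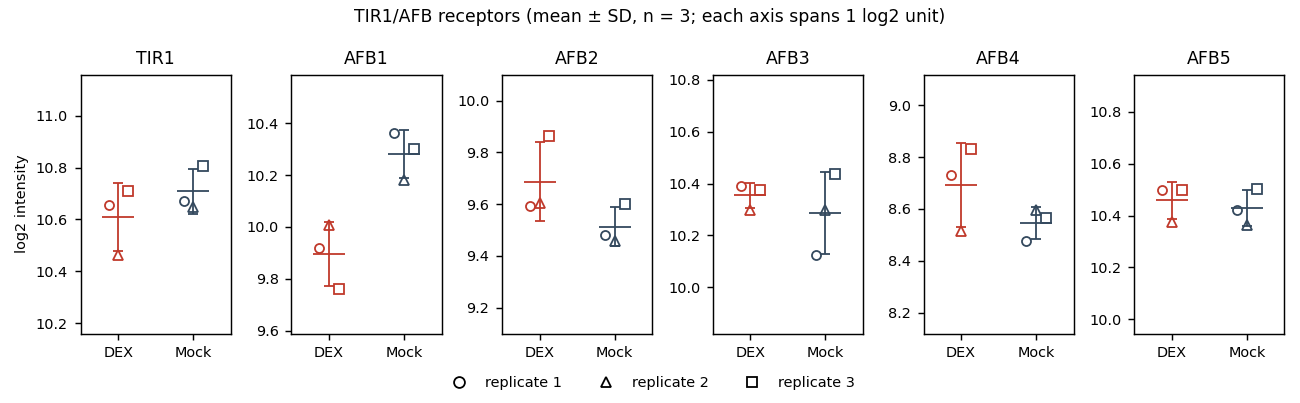
Log2 intensity (y axis, each spanning 1 log2 unit) of the 6 TIR1/AFB receptors, DEX in red to the left of Mock in blue; symbols are arrays by replicate, and bars are mean ± SD (n = 3). AFB1 is lower in DEX by 0.39 with no overlap, and the other 5 overlap.

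**Figure D5:**
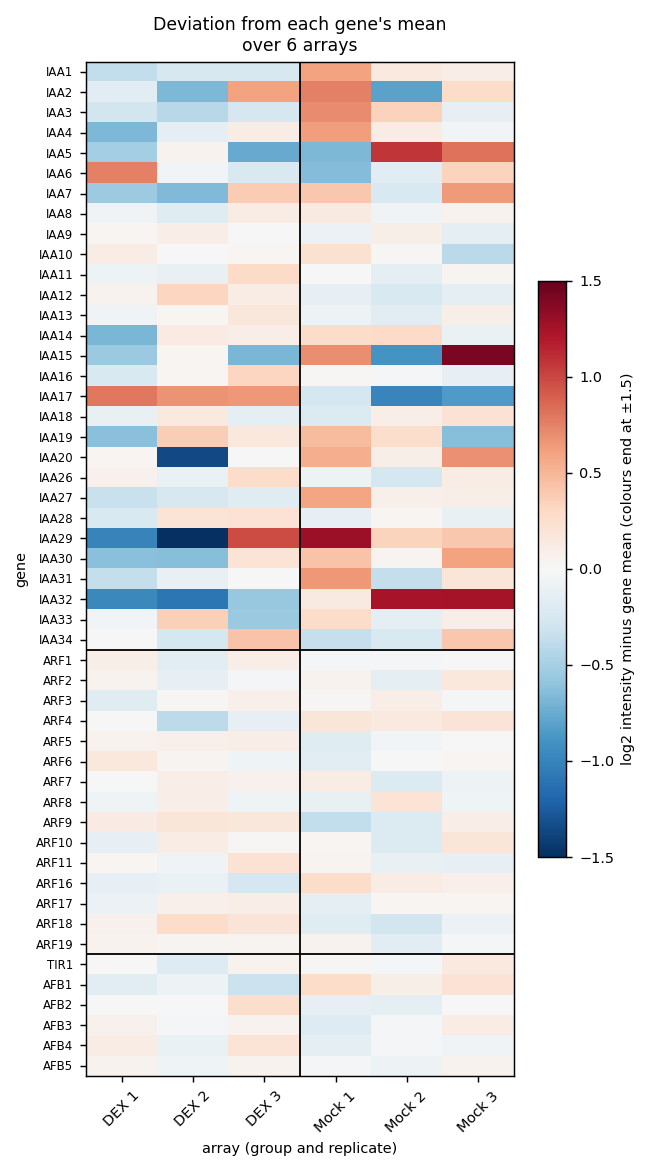
Log2 intensity minus the gene's mean over the 6 arrays (colour, red above and blue below, ending at ±1.5) for the 50 genes in rows and the arrays in columns, DEX left of Mock; black lines part the families. Among genes whose groups do not overlap, the rows of IAA17 and IAA32 differ most between the groups. Most ARF and receptor rows are pale, and dim genes such as IAA29 vary between arrays of 1 group.

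The other genes of the pathway, from lists set down with earlier results of these data known, gave the following counts. A list of 10 genes tied to the ubiquitin ligase and its RUB modification held ASK1, ASK2, CUL1, RBX1A, AXR1, ECR1, RCE1, CAND1, SGT1B and IBR5. Of these, 0 were at an unadjusted p under 0.05 and the median was 0.10. For 4 of the 10, or 40%, every DEX array was above every Mock array, where 8.74% of all genes were so. CUL1, the scaffold of the ligase, was at 1134, 1295 and 1068 in DEX, against 872, 1055 and 1014 in Mock (0.25, SE 0.13). Of the 5 TOPLESS-type corepressors, 2 (40%) were higher without overlap, and 1 was higher at an unadjusted p under 0.05. This was TPR3, at 1145, 1177 and 1072 in DEX, against 827, 957 and 917 in Mock (0.33, SE 0.11; limma adjusted p = 0.405). TOPLESS itself was at 1312, 1449 and 1383 in DEX and 1326, 1405 and 1404 in Mock (0.00, SE 0.10). The 8 further ARF genes outside the list, ARF12 to ARF15 and ARF20 to ARF23, had mean intensities of 0.841 to 2.24, so their differences are not interpreted.

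The genes listed as ARF targets were TMO5, TMO6, TMO7, CRF2, LFY, ANT, AHP6, ATHB8, LBD16, LBD18, LBD29, MYB77, IND, HEC1, PID, MYB21 and MYB24. Of these 17 genes, 12 were below 0 with a median of -0.31, and 9 of the 17 were dim. The list was not split by whether ARFs raise or lower its genes, so a shared sign has no single reading. At an unadjusted p under 0.05, 3 of the 17 were lower (TMO5, LFY and LBD18), 17.6%, where 5.92% of all genes were, and 0 were higher, and none passed over all genes with the default prior. LFY, which gives flowers their identity and is a target of ARF5, was at 224, 148 and 184 in DEX, against 291, 339 and 340.4 in Mock (-0.82, SE 0.18; limma adjusted p = 0.251, or 0.0155 with the trended and robust prior). That call under the trended and robust prior was lost without DEX replicate 2 (0.0792), Mock replicate 2 (0.0647) or Mock replicate 3 (0.0727). TMO5, another ARF5 target, was at 376, 394 and 457 in DEX, against 505, 488 and 507 in Mock (-0.29, SE 0.12). LBD18, which acts in lateral roots, was dim, at 11.4, 10.8 and 15.5 in DEX and 27.6, 16.7 and 24.5 in Mock (-0.85, SE 0.25). With 16 added, the list's median was -0.07.

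All 7 floral markers, LFY again among them, were below 0. AP3 (-0.18, SE 0.11), PI (-0.32, SE 0.16) and AG (-0.1, SE 0.15) overlapped between the groups. The summed intensity of the 7 was 3896 to 4130.4 in DEX, against 4897 to 5224 in Mock. WUS, which maintains stem cells of meristems, fell by 1.29 (SE 0.10, limma adjusted p = 0.047). With the replicate block its adjusted p was 0.299, and with each array left out it was 0.178 to 0.214 (limma, default prior), so the call was lost there, as it was after quantile normalization (0.0662) and median centring (0.0663). The trended and robust prior called WUS in all of its fits, the block and each left-out array included. SEP3, an organ identity gene, differed by -0.47 (SE 0.16). The summed late pollen markers were 243 to 360.1 in DEX, against 323 to 571 in Mock. The summed root markers were 5.69 to 6.36 in DEX, against 6.3 to 10 in Mock, and the seed markers 28.3 to 35 in DEX, against 29.1 to 48.2 in Mock. The 4 reference genes PP2AA3, UBC21, YLS8 and UBQ10 summed to 3680 to 4132 in DEX, against 3588 to 3757 in Mock, with a median difference of 0.11 and 0 at an unadjusted p under 0.05. The part of these markers, and of Mock replicate 1, in the members' differences was not tested, and in whole inflorescences fewer cells of a type and less RNA per cell cannot be told apart. By position, 16 of the 50 genes, IAA3, IAA27, IAA32 and AFB1 among them, overlap another locus in RefSeq; neither the probe design nor the strand read is given in the sources used here, so signal from such loci cannot be told apart.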

How the data were processed

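RNA of 6 inflorescence samples (3 DEX, 3 Mock) was hybridised with a Cy3 label to NimbleGen arrays, per the labels' protocols. The authors deposited intensity values made with RMA, per the submitters' processing notes; the linear scale was read from their range, 0.482 to 3642. The version of RMA, its background step and the probes' design: not given in the sources used here. Of 39640 features, 2522 had no value. The log2 of each remaining intensity was taken, and the feature with the highest mean stood for its locus, giving 32627 genes with no filter. All 50 members matched RefSeq's table, used for names, neighbours and overlapping loci only. DEX and Mock were compared in R 4.3.3 by limma 3.58.1 (two-sided test, eBayes with its default prior after lmFit) on all genes, with Benjamini-Hochberg adjustment and a threshold of 0.05. The fit was tested on simulated data. Arrays give no read depth; their number limits the precision. The series' design text calls the 3 sets of samples independent without saying whether plants were grown separately; the p-values then cover only the spread among the 6 samples, which may be technical. Members, lists, roles and settings were chosen with earlier results of these data known. Values in every array were to be given for members at an unadjusted p under 0.05, all receptors, ARF3, ARF5, ARF6, ARF8 and the 2 brightest of each family. Other members are named by choice after their values were seen. SAND and TIP41 were dropped from the list of reference genes because RefSeq's table does not carry these names. Other listed genes with a different RefSeq symbol, such as UBC21 (PEX4) and TMO5 (BHLH32), were kept. Alternatives were another prior, a filter on dim genes, an offset of 16, 2 other normalizations, the mean of features, a replicate block, a looser threshold and leaving out each array.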

Additional observations from a re-analysis of the deposited data

Results flagged for a closer look

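A feature that did not stand for its gene showed a difference: feature 1 of IAA13 differed by 1.44 (SE 0.43, limma unadjusted p = 0.0172, adjusted p = 0.356), at 10.1, 6 and 13.4 on the DEX arrays, against 2.08, 4.14 and 4.77 on the Mock arrays. It was dim, and the brightest IAA13 feature differed by 0.09 and the dimmest one by -0.61.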

How the results depend on the processing

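With 3 arrays a group, the number of genes called depended on the variance prior: 17 genes and 0 members with the default prior, 431 genes and 2 members with the trended and robust prior. It was 282 genes and 1 member over genes at or above the median intensity, 204 genes and 1 member with 16 added (IAA17 both times, which enters the brighter genes through its DEX values), 96 genes and 0 members at an adjusted p under 0.1, and 15 and 13 genes and 0 members after quantile normalization and median centring. Same-numbered DEX and Mock arrays correlated at 0.03, 0.06 and 0.06 over all genes, and all other pairs at -0.06 to 0. None passes 0.1, and the fit without the block was kept. Over the brighter genes same-numbered arrays correlated at 0.11, 0.29 and 0.23 and all other pairs below 0. Same-numbered pairs were thus the higher ones in both sets, and only whether they pass 0.1 depends on the genes taken. Deviations within a group sum to 0, so the lower values of the other pairs are no separate sign of pairing. Whether the numbers pair the arrays was not settled. With the replicate block the counts were 0 genes and 0 members, with 1 member higher at an unadjusted p under 0.05. Under the trended and robust prior they were 750 genes, 2.3% of all, and 4 members (IAA17, IAA32, ARF18 and AFB1). That setting was chosen after seeing the data, as was leaving out arrays under that prior. Leaving out each array in turn under both priors gave 0 to 314 genes, 0 to 2 members called, 3 to 12 members lower and 1 to 5 higher at an unadjusted p under 0.05; with the default prior every one of these 6 fits called 0 genes. Over the 34 brighter members 4 were lower at that level, and the Aux/IAA median was 0.09 in place of -0.16; the filter itself leaves 13 of 29 Aux/IAA genes. The ARF median was 0.03 after quantile normalization, 0.09 after median centring, and 0.02 to 0.09 with an array left out; the Aux/IAA median was -0.26 to -0.06. Of 984 recomputed member differences, 916 kept their direction and side of the threshold, 15 were past it only in the alternative and 53 changed sign; the cause was not tested. The sign changed for IAA9 (-0.01) and ARF2 (0.03) with the mean of all features, for ARF1 (0 after rounding) and ARF10 (-0.01) after quantile normalization, and for ARF8 (0.01) after median centring. With an array left out, ranges crossing or reaching 0 were -0.6 to 0.18 for IAA2, -0.08 to 0.24 for IAA10, -0.06 to 0.14 for IAA11, -0.06 to 0.21 for IAA16, -0.2 to 0.01 for IAA18, -0.4 to 0.24 for IAA19, -0.38 to 0.08 for IAA33, -0.07 to 0.34 for IAA34, -0.02 to 0.11 for ARF1, -0.14 to 0.01 for ARF2, -0.12 to 0.01 for ARF3, -0.08 to 0.08 for ARF8, -0.1 to 0.09 for ARF10, 0 to 0.12 for ARF17, -0.01 to 0.14 for AFB3 and 0 to 0.07 for AFB5.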
